A study of Homo sapiens with 6 samples.

Results

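HIF1A is the oxygen-regulated subunit of the transcription factor HIF-1, and VEGFA, CA9, ADM, NDRG1, BNIP3, EGLN3, ANKRD37 and DDIT4 are genes whose transcription is known to rise in hypoxia. These 9 genes, of 19974 annotated as protein-coding (chromosomes 1 to 22 and X), were described by every deposited CUT&Tag region that overlapped the gene's span extended by 5 kb on both sides, called its window below. The set was chosen by name, because PKM2 has been reported as a coactivator of HIF-1, and not by any value in the files. The cells were MDA-MB-231, an established basal-type line from triple-negative breast cancer, and the antibodies recognised NONO, H3T11ph or H3K27ac. The NONO libraries came from NC cells (the negative control, with the genotype WT in the labels) and NONO-KD cells (NONO knockdown), and both histone-mark libraries from NC and PKM2-KD cells (PKM2 knockdown). There were 6 libraries in 6 groups, 1 per group, so no p-value was computed and differences below describe these libraries. The methods describe both siRNA and shRNA knockdown and use the name NC for the siRNA control, but do not state which served for CUT&Tag, and neither they nor the labels name a low-oxygen treatment.

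In CUT&Tag an antibody brings Tn5 transposase to its antigen, and the DNA cut there is sequenced. In normal oxygen, prolyl hydroxylases such as EGLN3 mark HIF1A protein for destruction through VHL. When oxygen falls, HIF1A accumulates, pairs with ARNT and binds the letters ACGTG or GCGTG in promoters and enhancers, where coactivators such as EP300 acetylate histones. H3K27ac, an acetylated lysine of histone H3, marks active promoters and enhancers. H3T11ph is phosphate on threonine of the H3 tail, which nuclear PKM2 is reported to place there, and NONO is an RNA- and DNA-binding protein of paraspeckles.

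The lists differed in depth and form. Recovered depth was 2.84 to 3.42 fragments per kb for NONO and H3T11ph and 7.46 and 7.48 for the H3K27ac pair. The minimum width was shared by 94.6% of the NONO NC regions and 79.3% of those of H3K27ac NC, against 1.19% to 2.05% in the other 4 lists, so NC and knockdown cannot be told apart from the calling in the NONO and H3K27ac pairs. The lists come from bulk cells, in which fewer marked cells and less mark per cell cannot be told apart. As a check of the label, 1121 to 2001 bp of the 2 kb around the start of VIM, CD44, CAV1, AXL and EGFR, genes active in basal-type lines, were covered by H3K27ac in the 2 lists. The luminal and epithelial genes ESR1, PGR, GATA3, FOXA1, EPCAM and CDH1 had 0 to 682 bp covered. ALB, INS, PTPRC and MYH6, which mark other tissues, had 0 to 202 bp. Presence of a region there did not separate the classes, so the check rests on covered length. In NC, ESR1, PGR, GATA3, FOXA1, CDH1 and MYH6 had a region, and in PKM2-KD PGR, GATA3, FOXA1, EPCAM and INS did. The highest deposited fold among the luminal and epithelial genes was 9.32 in NC (GATA3) and 8.13 in PKM2-KD (PGR). The lowest among the basal genes was 9.71 in NC (AXL) and 11.7 in PKM2-KD (CAV1).

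Promoter sequence was read for 7 of the 9 genes from the RefSeq table (GRCh38.p14). The table used here held no entry for VEGFA or NDRG1. The 250 bases before the start are given for 5 genes, because these windows differ in which lists have a region over them: all 6 at HIF1A, H3T11ph and H3K27ac at DDIT4, NONO in NC and H3K27ac at ANKRD37, H3K27ac alone at BNIP3, and none at CA9. Each runs 5′ to 3′ on the gene's own strand, and capitals mark ACGTG or GCGTG on either strand (CACGT or CACGC where read on the opposite strand). The windows lie at chr14:61695263-61695512 (plus strand) for HIF1A, chr10:72273674-72273923 (plus strand) for DDIT4, chr4:185396591-185396840 (plus strand) for ANKRD37, chr10:131981924-131982173 (minus strand) for BNIP3 and chr9:35673678-35673927 (plus strand) for CA9.
HIF1A: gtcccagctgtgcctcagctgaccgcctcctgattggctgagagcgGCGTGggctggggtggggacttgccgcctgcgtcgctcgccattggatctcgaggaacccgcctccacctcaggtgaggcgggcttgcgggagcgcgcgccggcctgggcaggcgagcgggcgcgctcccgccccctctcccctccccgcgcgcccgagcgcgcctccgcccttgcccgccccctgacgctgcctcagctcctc
DDIT4: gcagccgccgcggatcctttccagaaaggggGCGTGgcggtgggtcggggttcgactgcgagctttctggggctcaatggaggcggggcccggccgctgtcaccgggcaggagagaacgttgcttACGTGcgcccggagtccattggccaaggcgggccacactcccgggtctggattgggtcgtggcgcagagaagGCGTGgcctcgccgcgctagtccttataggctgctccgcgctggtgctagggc
ANKRD37: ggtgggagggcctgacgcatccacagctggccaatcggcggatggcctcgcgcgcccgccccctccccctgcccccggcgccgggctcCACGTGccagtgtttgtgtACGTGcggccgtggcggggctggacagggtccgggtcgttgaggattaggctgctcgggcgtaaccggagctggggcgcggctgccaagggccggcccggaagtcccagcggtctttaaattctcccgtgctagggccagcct
BNIP3: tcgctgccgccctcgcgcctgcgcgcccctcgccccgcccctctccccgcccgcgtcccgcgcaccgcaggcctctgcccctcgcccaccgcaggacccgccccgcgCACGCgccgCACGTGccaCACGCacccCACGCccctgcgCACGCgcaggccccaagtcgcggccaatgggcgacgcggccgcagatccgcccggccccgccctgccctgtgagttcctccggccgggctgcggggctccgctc
CA9: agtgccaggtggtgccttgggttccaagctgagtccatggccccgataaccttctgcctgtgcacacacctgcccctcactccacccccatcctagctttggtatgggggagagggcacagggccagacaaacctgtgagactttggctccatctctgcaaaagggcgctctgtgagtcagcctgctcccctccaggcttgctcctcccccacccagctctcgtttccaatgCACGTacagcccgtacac

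Of the 250-base windows before all 22132 starts of protein-coding genes, 49.3% held at least 1 such match, and 20.2% held ACGTG on either strand. Of the 8 windows of these genes (HIF1A has 2 starts), 6 held a match. BNIP3 had 6 matches between 104 and 143 bases before its start, with ACGTG and CACGT overlapping at 133 and 134 bases, and H3K27ac regions of both lists covered every match. ANKRD37 had 3, the first 2 of which overlap as CACGTG at 162 and 161 bases before the start, and NONO NC and both H3K27ac lists covered them. DDIT4 had 3, at 219, 125 and 53 bases, and an H3T11ph NC region covered each of them. Both H3K27ac lists covered the matches at 125 and 53 bases, and of these lists only PKM2-KD covered that at 219 bases. The match nearest the start was also covered in H3T11ph PKM2-KD. HIF1A had 1, at 204 bases, covered by NONO in both conditions. CA9 and ADM had 1 match each, at 18 and 101 bases, with no region of any list over it, and EGLN3 and the second start of HIF1A had none. These are matches of letters in RefSeq sequence and say nothing of whether HIF1A was bound.

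**Figure D1:**
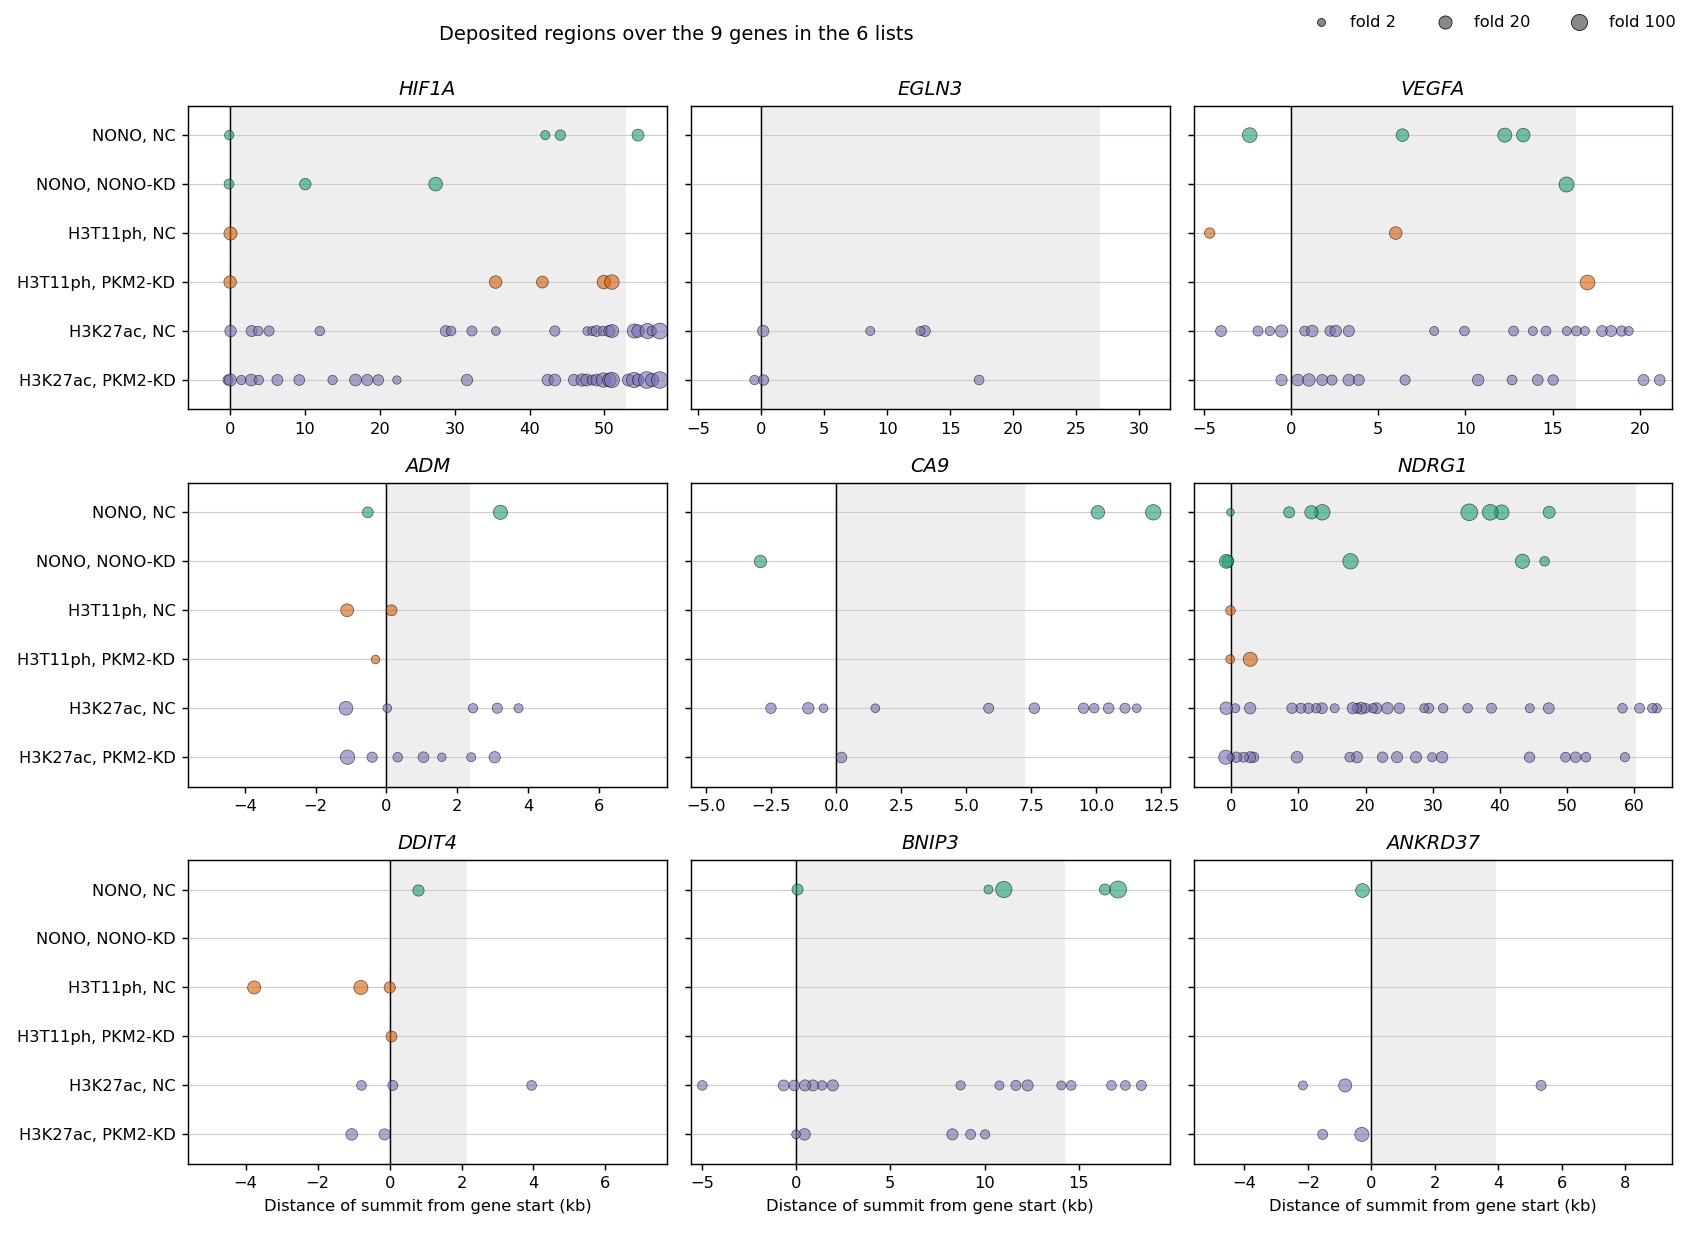
Summits of all deposited regions over the 9 genes, 1 panel per gene, with distance from the gene start in kb in the direction of transcription on the x axis and the 6 lists as rows. The grey band is the gene span, the black line the start, and circle area grows with the log of the deposited fold; HIF1A, NDRG1 and DDIT4 show H3T11ph at the start in both conditions, while EGLN3 shows H3K27ac only.

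Over the 9 windows NONO had 27 regions in NC and 10 in NONO-KD, H3T11ph had 9 in NC and 10 in PKM2-KD, and H3K27ac had 112 in NC and 82 in PKM2-KD. Every gene had H3K27ac in both lists. NONO was found at 8 of the 9 genes in NC and 4 in NONO-KD, against 77.1% and 51.5% of all genes, and H3T11ph at 5 in each condition, against 56.6% and 53.2%. For H3K27ac the shares of all genes were 97.4% and 89.6%. The genes without H3T11ph in either list were EGLN3, CA9, BNIP3 and ANKRD37. Per 10 kb of window, the median over the 9 genes was 1.14 NONO regions in NC, against 0.379 over all genes, and 0 in NONO-KD, against 0.0596. For H3T11ph it was 0.143 in NC, against 0.103, and 0.285 in PKM2-KD, against 0.0702. For H3K27ac it was 4.0 in NC and 2.06 in PKM2-KD, against 2.41 and 0.943 over all genes.

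HIF1A spans 52746 bp on chromosome 14 (61695513 to 61748258, plus strand). HIF1A and NDRG1 were the 2 genes of the set where all 6 lists had a region within 1 kb of the start. The NONO regions there had folds of 3.72 in NC (269 bp) and 4.59 in NONO-KD (100 bp), with recovered summit pileups, the number of fragments stacked at the summit, of 86 and 47. The H3T11ph regions had folds of 20.4 in NC (205 bp) and 15.2 in PKM2-KD (173 bp), and both summits lay 8 bp after the start. Their pileups were 75 and 49 fragments. The H3K27ac regions were 747 bp wide in NC and 1123 bp in PKM2-KD, with pileups of 69 and 83. The NC regions of NONO, H3T11ph and H3K27ac therefore met at this start. Elsewhere in the window the NONO and H3T11ph regions lay at different places in the 2 conditions: 3 NONO regions in NC and 2 in NONO-KD, and 4 H3T11ph regions in PKM2-KD only, 35460 to 50982 bp after the start, with folds of 11 to 40.4.

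The tallest H3K27ac of the HIF1A window was not at the start but past the gene's other end. A region of 2227 bp in NC began 3893 bp past the end (chr14:61752151-61754377) with a fold of 88.5 and a pileup of 242. Of all regions in the NC list, 0.0187% had a higher fold. PKM2-KD had a region of 2176 bp over the same stretch (chr14:61752167-61754342), with a fold of 129 and a pileup of 252. A second region began 2544 bp past the end in NC (695 bp, fold 62.0, pileup 169) and 2421 bp past it in PKM2-KD (900 bp, fold 142, pileup 277). HIF1A-AS2, a long noncoding RNA gene (61747039 to 61749089), crosses the end of HIF1A. The PKM2-KD regions that began at 61748604 and 61749009 overlapped it, and the tall regions above lay beyond it. The next protein-coding gene, SNAPC1, starts beyond the window at 61762420. The 5 regions of NC that lay past the end of HIF1A summed to 3949 bp and the 6 of PKM2-KD to 4573 bp. H3K27ac at this stretch was thus present in both conditions, with the taller summits and the larger summed width in PKM2-KD. Folds ran higher over the whole PKM2-KD list, with a median of 5.55 against 4.33 in NC. The share of the PKM2-KD list with a higher fold was 0.0611% for the widest region. For the second region the shares were 0.0569% in NC and 0.0465% in PKM2-KD. A region about 1.5 kb past the end had a lower fold in PKM2-KD (15.8 in NC, 10.1 in PKM2-KD), with pileups of 76 and 145.

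EGLN3, a prolyl hydroxylase that acts on HIF1A and is itself induced by hypoxia (chromosome 14, 33924227 to 33951074, minus strand), had no NONO or H3T11ph region in any list. H3K27ac had 4 regions in NC and 3 in PKM2-KD over a window of 36.8 kb. At its start, a region of 407 bp in NC had a fold of 9.05 and a pileup of 23, and one of 338 bp in PKM2-KD had 5.96 and 10. EGLN3 had the least H3K27ac of the 9 genes in NC, at 20.2 bp covered per kb of window, and 15.9 bp in PKM2-KD.

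VEGFA, which encodes a growth factor for blood vessels (chromosome 6, 43770211 to 43786487), had 4 NONO regions in NC with folds of 15.8 to 45.3 and pileups of 42 to 85. NONO-KD had 1, with a fold of 54.0. H3T11ph had 2 regions in NC (folds 5.83 and 16.0) and 1 in PKM2-KD (48.8). None of the NC regions of these 2 targets overlapped its knockdown counterpart, and no NONO or H3T11ph region lay within 1 kb of the lower-coordinate end, where VEGFA is known to start. H3K27ac had 21 regions in NC and 14 in PKM2-KD, which covered 4555 and 4310 bp. The region with its summit 554 bp before the start was found in both, at 49 fragments in NC and 24 in PKM2-KD. A region with its summit 1212 bp after the start in NC (460 bp, fold 9.41, pileup 24) was overlapped in PKM2-KD by one of 899 bp (fold 14.8, pileup 28). Of the other NC regions inside the gene that were overlapped, those with summits 2239, 2559 and 3310 bp after the start had 15, 24 and 45 fragments, and the overlapping PKM2-KD regions had at most 14, 9 and 37. H3K27ac summits inside VEGFA thus moved in both directions.

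ADM, which encodes the vasodilator peptide adrenomedullin (chromosome 11, 10305073 to 10307397, plus strand), had the broadest H3K27ac near a start of the set. It was a region of 2069 bp in NC and 2011 bp in PKM2-KD, with summits 1141 and 1097 bp before the start, folds of 27.2 and 37.9 and pileups of 155 and 182. H3K27ac covered 207 bp per kb of the ADM window in NC and 288 bp in PKM2-KD, the highest of the 9 genes in both lists. NONO had 2 regions in NC, at 525 bp before the start (fold 6.96) and past the gene's end (fold 34.0), and none in NONO-KD. H3T11ph lay on both sides of the start in NC, with summits 1109 bp before and 145 bp after it (folds 18.0 and 7.36, pileups 48 and 55). PKM2-KD had 1 H3T11ph region, 312 bp before the start, with a fold of 2.71 and a pileup of 41, which overlapped neither. The window also overlaps the annotated span of SBF2, another protein-coding gene, so the broad H3K27ac region cannot be assigned to ADM alone.

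CA9, carbonic anhydrase of the cell surface and a widely used marker of hypoxic tumour cells (chromosome 9, 35673928 to 35681159, plus strand), had the largest relative fall in H3K27ac regions of the set, from 11 in NC to 1 in PKM2-KD. Of the 11, 3 lay before the start, 2 inside the gene and 6 past its end, on the side of TPM2, and the 1 in PKM2-KD lay inside the gene. The NC regions were small, covering 1563 bp of the window with a highest fold of 9.05, and the 1 in PKM2-KD was 173 bp wide with a fold of 6.51. None overlapped. At its start CA9 thus had little H3K27ac in either list, with 143 and 173 bp covered within 1 kb. NONO had 2 regions in NC, both past the gene's end where the window reaches TPM2, and 1 in NONO-KD, 2944 bp before the start.

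NDRG1, a gene induced by hypoxia and other cell stress (chromosome 8, 133237175 to 133297252), had the most NONO regions, with 8 in NC against 5 after NONO knockdown. The strongest in NC lay inside the gene, with folds of 143, 77.7 and 70.6 and pileups of 271, 172 and 133. None of these was found in NONO-KD, whose strongest, with a fold of 67.3, lay elsewhere in the gene. Near the higher-coordinate end, where NDRG1 is known to start, NONO was present in both. There the NC region (592 bp) and the NONO-KD region (389 bp) had the same pileup of 63 fragments, while their folds were 1.81 and 11.2, the background the caller used being 34.4 fragments in NC and 4.73 in NONO-KD. A second NONO-KD region 725 bp before the start had 86 fragments and a fold of 31.2. H3T11ph lay at the same place in both, with pileups of 81 in NC and 46 in PKM2-KD and folds of 4.11 and 3.03. H3K27ac formed a region of 998 bp in NC and 1109 bp in PKM2-KD at this start, with 113 and 166 fragments, and had 28 regions in NC and 19 in PKM2-KD over the window.

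DDIT4, an inhibitor of the growth kinase mTORC1 (chromosome 10, 72273924 to 72276036, plus strand), carried the widest H3T11ph of the set. In NC a region of 455 bp lay over the start with its summit 5 bp after it (fold 8.48, pileup 66), a second of 401 bp had its summit 798 bp before it (fold 32.8, pileup 60), and another lay 3765 bp before it (fold 20). PKM2-KD had 1 region of 104 bp over the start, with a fold of 7.21 and a pileup of 60. The summit at the start was therefore nearly as tall in PKM2-KD, and the region around it narrower. Among the H3T11ph regions of the 9 genes, only these 2 from NC reached 2 times the minimum width of their own list. H3K27ac over the start was 471 bp wide in NC and 858 bp in PKM2-KD, with 26 and 41 fragments. NONO had 1 region in NC, 794 bp after the start (fold 8.45), and none in NONO-KD.

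BNIP3, a mitochondrial protein that promotes removal of mitochondria (chromosome 10, 131967684 to 131981923, minus strand), had 5 NONO regions in NC and none in NONO-KD. The tallest of them, with a fold of 171 and 323 fragments, lay past the gene's end. Another region, with a fold of 109, lay inside BNIP3. The window also overlaps the annotated span of PPP2R2D. A NONO region with a fold of 7.73 lay 65 bp after the start. H3K27ac fell from 16 regions in NC to 5 in PKM2-KD, and from 2542 to 1023 bp covered. The region with its summit 469 bp after the start was found again, at 20 and 21 fragments. ANKRD37, a gene of unsettled function that hypoxia induces (chromosome 4, 185396841 to 185400723, plus strand), had 1 NONO region in NC, of 531 bp with its summit 305 bp before the start and a fold of 28.1, and none in NONO-KD. H3K27ac at that start was 959 bp wide in NC and 1336 bp in PKM2-KD, with folds of 20 and 33.3 and 75 and 96 fragments. Both windows hold another protein-coding gene or more, LRP2BP and UFSP2 in the case of ANKRD37, so regions there cannot be assigned to a single gene.

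**Figure D2:**
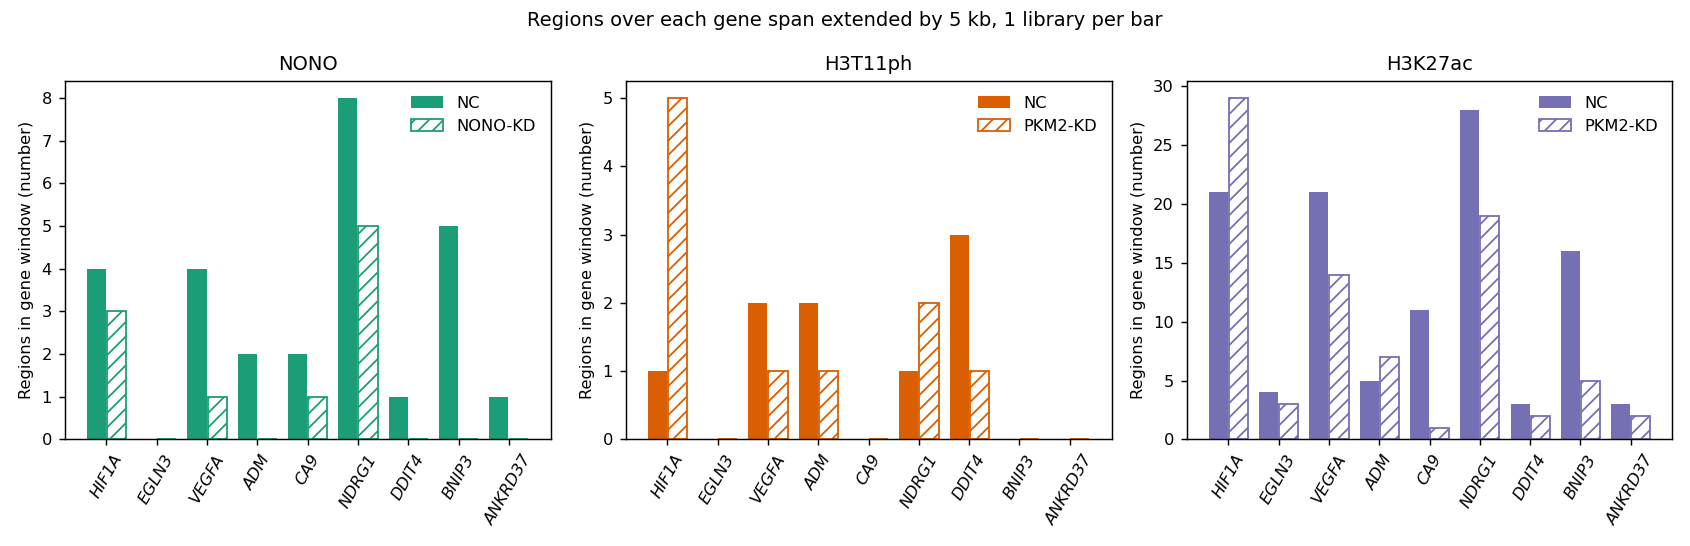
Number of deposited regions over each gene's window (y axis, from 0), with NC as filled and knockdown as hatched bars, 1 library per bar and 1 panel per target. NONO bars are lower in NONO-KD at all 8 genes that had NONO in NC, H3T11ph bars move in both directions, and H3K27ac bars fall most at CA9 and BNIP3.

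Region counts were compared first, NC against knockdown, gene by gene. A gene was called lower or higher where the counts differed at least 2-fold, including counts of 0. For NONO, 6 of the 8 genes with a region in either list were lower in NONO-KD (VEGFA, ADM, CA9, DDIT4, BNIP3 and ANKRD37), against 66.6% of all genes with a region, and 0 were higher, against 12.1%. The summed count in NONO-KD was 0.370 of that in NC (95% counting interval 0.160 to 0.790). Over all gene windows it was 0.426. With both lists cut to the same length the ratio was 0.833 (10 against 12 regions) and 1 gene was higher, so the size of the fall depended on the longer NC list.

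For H3T11ph, 3 of 5 genes were lower in PKM2-KD (VEGFA, ADM and DDIT4), against 39.6% of all genes with a region, and 2 were higher (HIF1A and NDRG1), against 32.7%. The summed ratio was 1.11 (0.406 to 3.09), against 0.909 over all windows, and 0.625 without HIF1A. No direction could be read from counts this small. For H3K27ac, 2 of 9 genes were lower in PKM2-KD (CA9 and BNIP3), against 62.2% of all genes with a region, and 0 were higher, against 3.25%. The summed ratio was 0.732 (0.544 to 0.982), against 0.410 over all windows. This ratio turned to 1.39 among regions with −log10 q of 5 or more, to 1.39 among regions at least 2 times the narrowest width and to 1.52 with both lists cut to the same length, so the direction of the H3K27ac counts depended on the faint and narrow regions of the NC list.

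The second comparison concerned the starts. A region within 1 kb of the start (of either end for VEGFA and NDRG1, whose starts the tables do not give) was present for NONO at 6 of 9 genes in NC, against 23.5% of all genes, and at 3 in NONO-KD, against 8.25%. The 3 in NONO-KD were HIF1A, NDRG1 and VEGFA, the last at the end where VEGFA is known to finish. With equal list lengths NONO was near the start of 1 gene in NC and 3 in NONO-KD, so the direction of this count turned. H3T11ph was present at 4 genes in NC (HIF1A, ADM, NDRG1 and DDIT4), against 16.1% of all genes. In PKM2-KD it was present at the same 4 and at the far end of VEGFA, against 16.0%. H3K27ac was present at 9 of 9 genes in both lists, against 71.1% and 62.1%. Its covered length within 1 kb had a median of 747 bp in NC and 957 bp in PKM2-KD over the 9 genes, against 171 and 233 bp over all genes. Among the wider regions 1 gene kept NONO near its start in each condition, and 1 kept H3T11ph in NC and 0 in PKM2-KD.

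Where an NC and a knockdown region overlapped near a start, their pileups were set side by side, a measure chosen after the data were seen. For H3T11ph all 3 such genes had fewer fragments in PKM2-KD. The ratio was 0.568 at NDRG1 (0.387 to 0.825), 0.653 at HIF1A (0.446 to 0.949) and 0.909 at DDIT4 (0.630 to 1.31). Over the 701 genes with such a pair the pileup was lower in 46.1%, with a median ratio of 1.06, so genes with a pair did not generally show this fall. In NC 3217 genes had H3T11ph near a start, and those without an overlapping PKM2-KD region do not enter here. The comparison therefore cannot speak for H3T11ph as a whole. The narrowest width, taken as the fragment length and so as the reach of each fragment in the pileup, was 111 bp in NC and 91 bp in PKM2-KD, a ratio of 0.820. Its part in the 3 ratios was not tested.

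For H3K27ac, whose 2 lists had near-equal depth and narrowest widths of 112 and 113 bp, 8 genes had a pair, and 2 of them had fewer fragments in PKM2-KD, against 37.8% of 8948 genes. The 2 were EGLN3, with a ratio of 0.435 (0.185 to 0.95), and VEGFA, with 0.490 (0.287 to 0.814). NDRG1 had more, with 1.47 (1.15 to 1.88). The intervals of the other 5 included 1, at BNIP3 (1.05), ADM (1.17), HIF1A (1.2), ANKRD37 (1.28) and DDIT4 (1.58). The median over the 8 was 1.19, and over all genes with a pair 1.14. Among the 8 pairs the H3K27ac pileup was thus not lower in PKM2-KD as a group. CA9 had no pair, and its tallest region near the start had 23 fragments in NC and 11 in PKM2-KD. Pileups from 1 library per condition do not measure the total acetylation of the cells. For NONO only NDRG1 (1.00, 0.694 to 1.44) and HIF1A (0.547, 0.375 to 0.789) had a pair, and 1 of 2 was lower, against 69.4% of 248 genes. The narrowest widths of the NONO lists, 269 and 98 bp, differ too much for these heights to be compared directly.

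**Figure D3:**
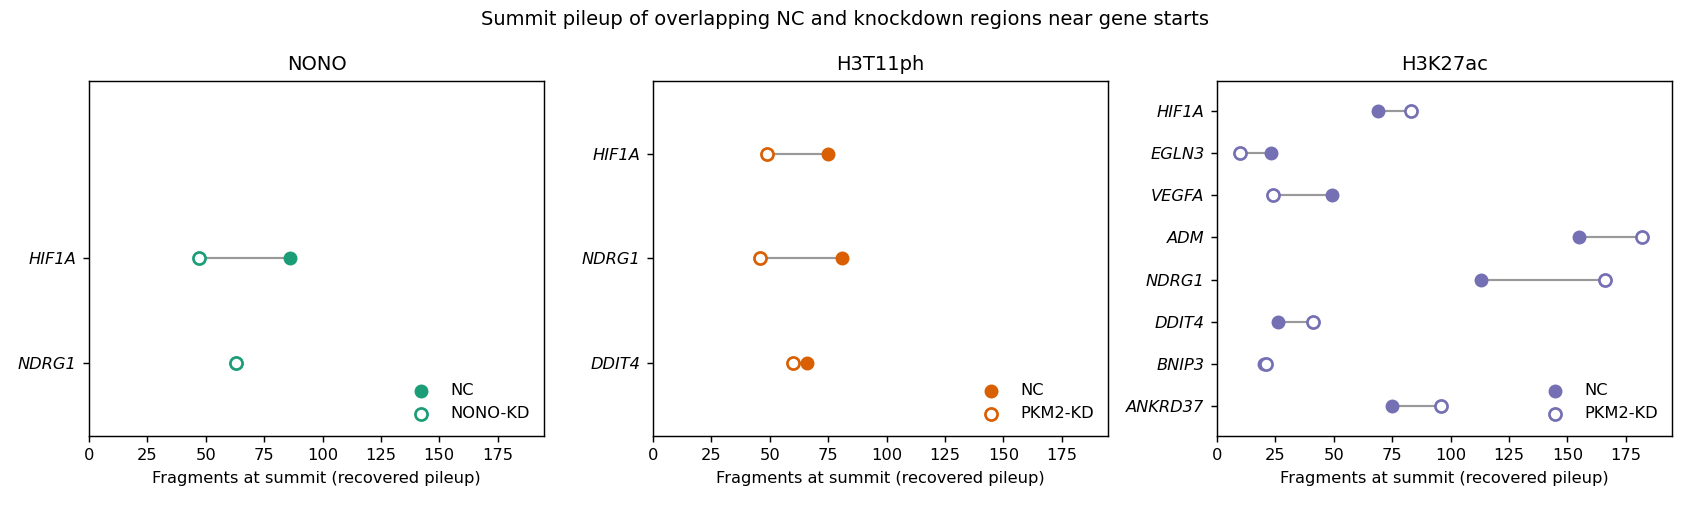
Fragments at the summit (x axis, recovered pileup) for each gene where an NC region near the start overlapped a knockdown region, with NC as filled and knockdown as open circles joined by a line and 1 panel per target. H3T11ph is lower in PKM2-KD at all 3 genes, by 26, 35 and 6 fragments, and H3K27ac is lower at EGLN3 and VEGFA and higher at the other 6.

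Recurrence of regions was counted next. Of the NC regions over the 9 genes, a knockdown region overlapped 7.41% for NONO (2 of 27, 95% Wilson interval 2.06 to 23.4), 33.3% for H3T11ph (3 of 9, 12.1 to 64.6) and 32.1% for H3K27ac (36 of 112, 24.2 to 41.3). Over all gene windows the shares were 1.90%, 6.18% and 15.9%. The shares differed with position. Near starts, 4 of 10 NONO regions and 6 of 10 H3T11ph regions, both conditions counted, overlapped a region of the other condition, and farther away 0 of 27 and 0 of 9 did. These counts hold each shared place in both lists. In NC alone, 2 of 6 NONO regions near starts and 3 of 5 H3T11ph regions were overlapped, against 4.31% and 19.6% over all windows. In the knockdown lists they were 2 of 4 and 3 of 5, against 13.4% and 19.8%.

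The background under regions near starts was higher. The background that the caller used there had a median of 6.30 fragments for NONO and 6.76 for H3T11ph, against 0.899 and 0.372 farther away, with the NC and knockdown lists pooled. The median fold near starts and farther away was 7.35 and 24.2 in NONO NC, 8.48 and 17.0 in H3T11ph NC and 7.21 and 24.4 in H3T11ph PKM2-KD, but 21.2 and 20.8 in NONO-KD. Over all gene windows these medians were 18.4 and 25.9, 13.1 and 18.4, 15.7 and 22.9, and 21.7 and 36.0, in the same order. Lower folds near starts were thus found over all genes as well. The NONO-KD regions counted near starts include one at the end where VEGFA is known to finish (fold 54.0). The others had folds of 4.59, 11.2 and 31.2. H3T11ph PKM2-KD also includes a region at that end of VEGFA (fold 48.8). A low fold at a start thus did not mean few fragments. The median pileup was 68.5 fragments near starts and 61.0 farther away in NONO NC, and 66.0 and 27 in H3T11ph NC. At the start of NDRG1 the H3T11ph background was 19.0 fragments in NC and 14.5 in PKM2-KD, so a fold of 4.11 there rested on 81 fragments.

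**Figure D4:**
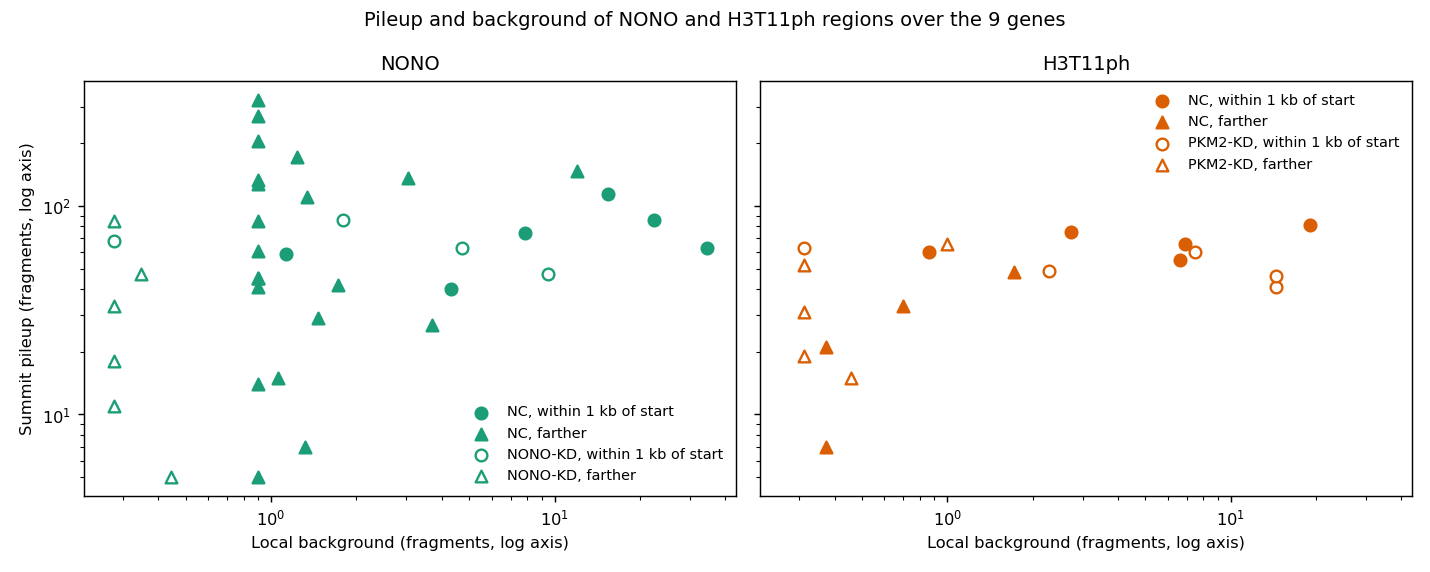
Summit pileup against local background, both in fragments on log axes, for every NONO and H3T11ph region over the 9 genes, with NC filled and knockdown open. Circles lie within 1 kb of a start (of either end for VEGFA and NDRG1) and triangles farther away; most circles sit at backgrounds above 1 fragment, and most triangles at the lowest background of their list.

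Co-occurrence was counted in NC. Of 27 NONO regions over the 9 genes, 12 overlapped an H3K27ac region (44.4%, 27.6 to 62.7), against 19.3% over all gene windows. Of 9 H3T11ph regions, 5 did (55.6%, 26.7 to 81.1), against 22.7%. NONO and H3T11ph regions overlapped each other at 2 places, the starts of HIF1A and NDRG1. This was 7.41% of the NONO regions (2.06 to 23.4), against 3.04% over all windows, and 22.2% of the H3T11ph regions (6.32 to 54.7), against 7.12%. In PKM2-KD 7 of 10 H3T11ph regions overlapped H3K27ac, against 28.9% over all windows.

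Other genes of the HIF pathway were taken from a list of 14 regulators and 38 further hypoxia targets, of which 2 targets (FUT11 and NDUFA4L2) had no row in the gene table used here. Of the 46 of the remaining 50 that had a NONO region, 33 had at least 2-fold fewer in NONO-KD and 5 at least 2-fold more, against 66.6% and 12.1% of all genes. For H3T11ph 14 of 45 were lower and 15 higher in PKM2-KD, against 39.6% and 32.7%, and for H3K27ac 28 of 50 were lower and 2 higher, against 62.2% and 3.25%. H3K27ac lay near the start of 41 of the 50 in NC and 37 in PKM2-KD, against 71.1% and 62.1% of all genes, and H3T11ph near 12 and 15, against 16.1% and 16.0%. PFKFB3, a regulator of glycolysis, lost most NONO regions, from 37 to 12, and KDM4B, a histone demethylase, went from 34 to 11. P4HA2, a collagen prolyl hydroxylase, went from 0 to 3 and CA12, another carbonic anhydrase, from 1 to 2, a gain of 1 that EGLN1, SLC2A3 and ENO1 shared. H3T11ph went from 3 to 0 at HIF3A, a further HIF subunit, and from 10 to 7 at KDM4B, and PFKFB3, PDK1 and WSB1 lost as many. It rose from 1 to 4 at BHLHE40, a repressor induced by hypoxia, and from 1 to 4 at CITED2, which competes with HIF1A for EP300, and HK2, a hexokinase, gained as many, from 0 to 3. H3K27ac went from 54 to 7 regions at FLT1, a receptor for VEGFA, and from 132 to 91 at PFKFB3. It went from 5 to 14 at ELOB, a partner of VHL, and from 14 to 18 at STC2, a secreted glycoprotein. The regulators taken alone had 8 of 12 lower for NONO, 3 of 14 lower and 6 higher for H3T11ph, and 8 of 14 lower and 1 higher for H3K27ac.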

How the data were processed

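Each library was deposited as its own peak list in narrowPeak form. The submitters' processing notes name MACS2 2.1.1.20160309, cutadapt 1.18, SAMtools 1.3.1, FastQC 0.11.9 and the build hg38; the aligner and the caller's settings and control are not given in the sources used here. The deposited lists give a score (the whole part of 10 times −log10 q), a fold, −log10 p and −log10 q, and the summit's position, used as the authors' values. The fold was read as the ratio of the summit to the background the caller used. Whether that background came from the same library or from a control is not stated. No depth was given. Summit pileups, backgrounds and depth were recovered by finding the whole fragment height whose Poisson tail matched fold and −log10 p within 0.002. In a sample of each list at least 99.8% of rows matched, after pileup and background of H3K27ac NC were both multiplied by 0.521.

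Genes and starts came from RefSeq (GRCh38.p14), which gives spans and starts but no exons here. Strand was given for 7 genes, and for VEGFA and NDRG1 it was taken from general knowledge. Counts used Python 3.11.15, pandas 2.3.3 and SciPy 1.17.1, and an overlap of at least 1 bp. Intervals are 95% and cover counting error only; ratios of counts use the exact conditional binomial interval. The overlap counter and the pileup recovery were tested on simulated data. The members were chosen by name and not by any value in the files, but members and lists were set with earlier results of these data known. The genes named were the 9 members and, of the pathway list, the 2 with the largest loss and gain per target (ties by symbol) and any regulator without H3K27ac near its start in both lists (there was none), and the 3 genes nearest to HIF1A by Euclidean distance of log-scaled region counts. Alternatives were a −log10 q of at least 5, wider regions, equal list lengths, windows of 0 and 10 kb, 2.5 kb from the start, an overlap of 50%, and each gene left out in turn.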

Additional observations from a re-analysis of the deposited data

How the results depend on the processing

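No paired analysis was possible because the 6 libraries were in 6 groups, with no replicate to pair. Leaving out each of the 9 genes in turn kept the 3 summed ratios inside their intervals, as did a window of 10 kb and the gene span alone. Without HIF1A the H3T11ph ratio was 0.625, on the other side of 1. The span alone changed 1 count, of genes with at least 2-fold more H3K27ac, from 0 to 1. A distance of 2.5 kb from the start and an overlap of 50% left every result they bear on within its margin. Taking the tallest region near each start, overlapping or not, a setting chosen after the data were seen, gave 4 of 4 genes lower for H3T11ph, 3 of 9 for H3K27ac and 1 of 2 for NONO.

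Keeping regions whose −log10 q reached 5, the H3K27ac ratio was reversed at 1.39, 3 genes had at least 2-fold more H3K27ac and 50% of its NC regions were found again. Among regions at least 2 times the narrowest width, the H3K27ac ratio was again reversed at 1.39, 4 genes had at least 2-fold more and 64.5% were found again. For NONO 1 gene was lower, 1 had a region near the start in NC and 1 in NONO-KD, and 50% (1 of 2) were found again. For H3T11ph the ratio was 0, with 1 gene lower, 0 higher, 1 near the start in NC and 0 in PKM2-KD, and 0% of 2 regions found again. With equal list lengths, the H3K27ac ratio was reversed at 1.52, 1 gene was lower and 3 higher, and 48.1% were found again. The NONO ratio was 0.833, 1 gene was higher, 1 had a region near the start in NC and 3 in NONO-KD, and 0% of 12 were found again. These filters remove faint or narrow regions, which the NONO NC and H3K27ac NC lists held most of. The cause was not tested further.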

Other observations

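The 3 protein-coding genes whose windows were most like that of HIF1A, by region counts over the 6 lists among 2391 genes with a window of similar length, were SLC25A37, PPTC7 and CDC123. Their counts were 5, 5 and 6 NONO regions in NC and 3, 2 and 3 in NONO-KD. H3T11ph had 1 region in NC at each and 4, 3 and 3 in PKM2-KD. H3K27ac had 30, 25 and 31 in NC and 25, 21 and 22 in PKM2-KD, against 21 and 29 at HIF1A, which therefore differed from all 3 in having more in PKM2-KD.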
